A study of Canis lupus familiaris with 9 samples.

Results

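The genes described here are collagen-processing and crosslinking enzymes, chosen by symbol in the array's gene table: the chaperone SERPINH1, the prolyl hydroxylases P4HA2, P4HA3 and P3H2, the lysyl hydroxylase PLOD1, the procollagen enhancer PCOLCE, and the lysyl oxidases LOX, LOXL1 and LOXL2. Of 10 listed genes, 9 had a probe set, among 15947 named genes on the array, and the remaining gene was not analysed here. Where a gene had several probe sets, the one with the greatest average signal stands for it. RNA of 9 dog (Canis lupus familiaris) cell cultures was hybridised to 9 Affymetrix arrays, 3 per culture type. SKN cells are neural precursors grown from skin, cultured serum-free with EGF, FGF and the supplement B-27, and started as floating spheres. Brain cells are neural precursors grown from brain, whose medium the labels used here do not give. Fibroblast cells came from skin and were kept with serum. Skin came from community dogs that had routine surgery, and cells of all groups were untreated primary cultures. The series title calls the skin donors adult, and neither genotype nor the dog behind each culture is stated. Medium, tissue and cell type cannot be told apart. Whether arrays of a group came from separate dogs is unknown, so a p reflects the spread among the samples at hand, which may be technical.

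Collagen chains are modified inside the cell before they fold and are joined outside it afterwards. In the endoplasmic reticulum, prolyl 4-hydroxylases stabilise the triple helix, prolyl 3-hydroxylases and lysyl hydroxylases modify further residues, and the chaperone HSP47, the product of SERPINH1, binds the folded helix. After secretion, proteases remove the propeptides, a step that PCOLCE speeds up, and lysyl oxidases convert lysines into the aldehydes from which crosslinks form. Fibroblasts of skin are a main source of fibrillar collagen, while P3H2 is known for acting on basement membrane collagen.

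Values are log2 signals, so that 1 unit is a 2-fold difference in signal. A level is read here only against the same probe set on other arrays. Array medians lay between 4.72 and 4.79, and pairs of arrays within a group had correlations of 0.978 to 0.985 over probe sets. The table holds no detection calls, so low readings cannot be read as absence. Fibroblast markers, 10 genes that include the collagens COL1A2 and COL3A1, averaged 10.66 to 10.98 in SKN, 4.62 to 6.24 in Brain and 9.89 to 10.16 in Fibroblast. Of 7 neural precursor markers, limma called 0 between SKN and Fibroblast, beside 4.55% of all named genes, so this count says little. An unadjusted p under 0.05 was reached by 2, with the share of all genes not counted. Of these 7, NES and PAX6 were called lower in SKN than in Brain, and NES alone was called higher in Brain than in Fibroblast. Of 6 Schwann cell and neural crest markers, 5 were called higher in Brain than in either skin culture. Over all named genes, 11.7% were higher in Brain than in SKN and 13.8% higher than in Fibroblast. Brain 3 had a fibroblast marker mean of 6.24, where Brain 1 and Brain 2 had 4.62 and 4.82. Its pericyte and smooth muscle marker mean was 6.55, where Brain 1 and Brain 2 had 5.08 and 5.16. Neural precursor marker means were 4.97, 4.89 and 4.64 on Brain 1, Brain 2 and Brain 3, and SOX2 among them read 7.36, 7.16 and 5.34. Against the mean of the other Brain arrays, Brain 3 read -1.92 for SOX2, -0.564 for NES and 0.718 for PROM1. The other neural precursor markers lay between -0.288 and 0.166 on that scale. Fibroblast 1 had a Schwann marker mean of 5.84, where the rest of its group had 4.33 and 4.17. Means over the leukocyte, endothelial, and keratinocyte and epithelial markers lay between 2.96 and 3.91 on all arrays. Single markers departed. CD68 read 5.68, 5.38 and 7.13 in Fibroblast and at most 5.01 elsewhere. KDR read 3.82 to 4.23 in SKN and at least 4.93 elsewhere. Of 5 astrocyte and oligodendrocyte markers, ALDH1L1 and SLC1A3 were called higher (10.9% of all genes) and AQP4 lower (11.7%) in SKN than in Brain. ALDH1L1 was also called higher in SKN than in Fibroblast (2.45% of all genes). Fewer cells of a type and less RNA per cell cannot be told apart in such cultures.

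**Figure D1:**
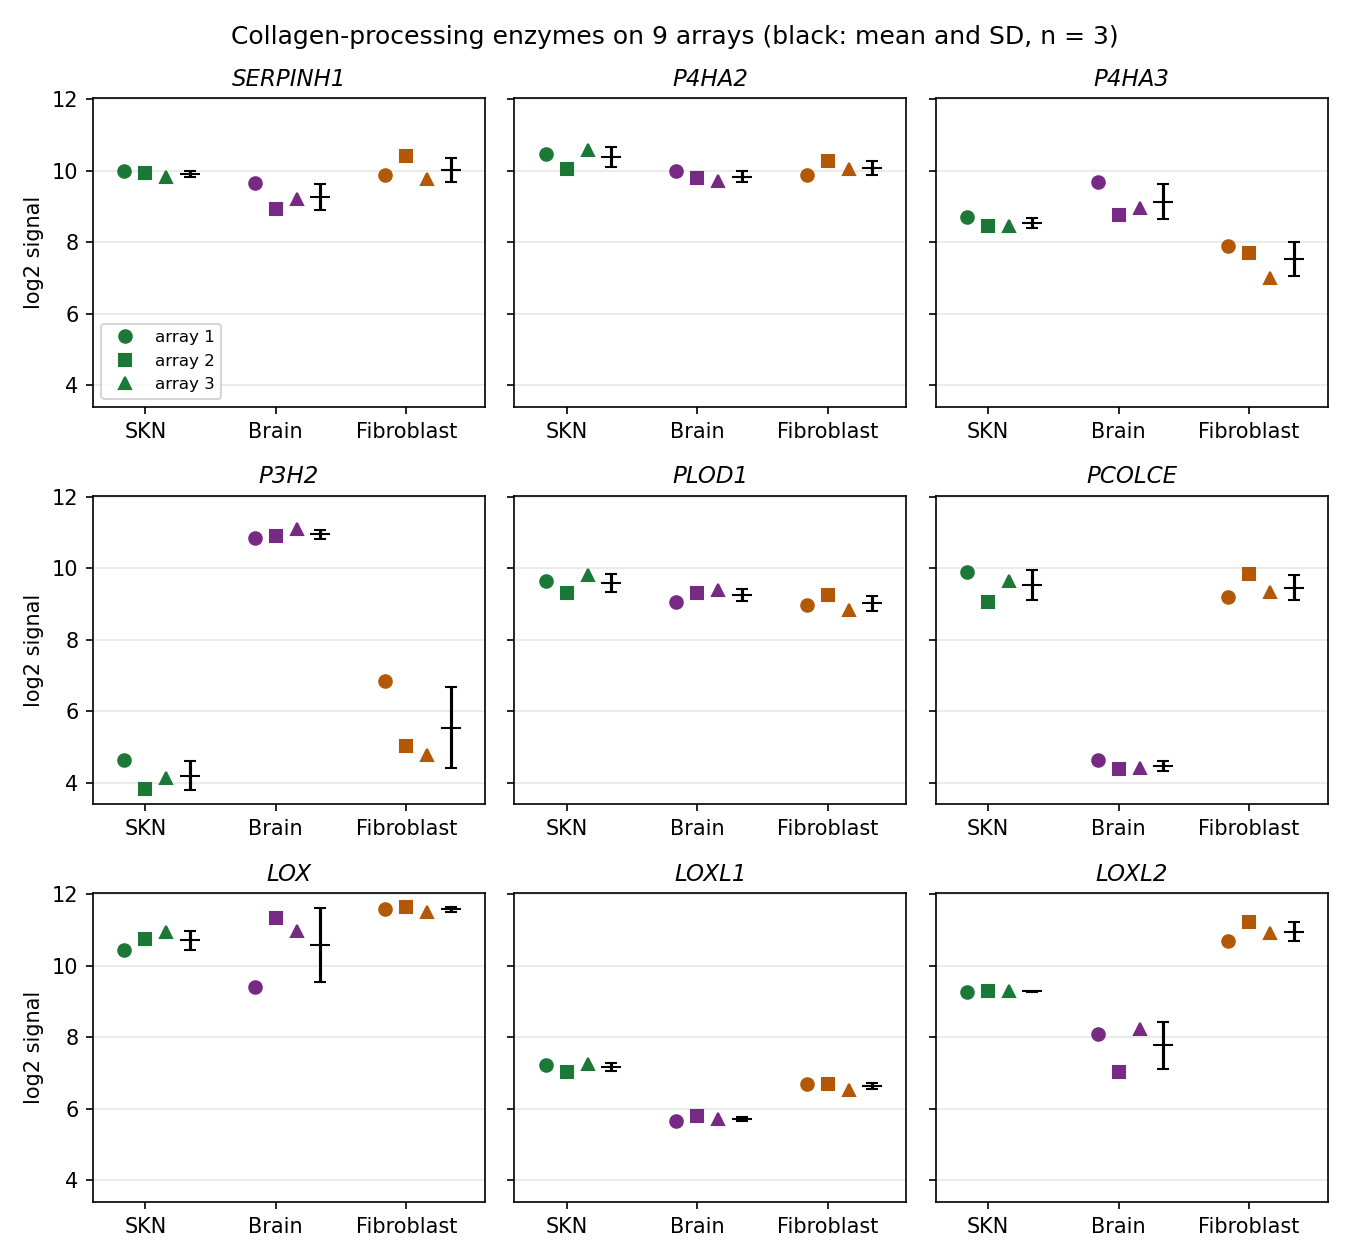
Log2 signal (y axis, the same in each panel) of the 9 enzymes on the 3 SKN, 3 Brain and 3 Fibroblast arrays, with a symbol per array number and the mean and SD in black. P3H2 reads 10.85 to 11.09 in Brain and at most 6.85 elsewhere, and PCOLCE reads 4.38 to 4.64 in Brain and at least 9.07 elsewhere, while SERPINH1 stays between 8.94 and 10.40 and PLOD1 between 8.82 and 9.80.

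SERPINH1, the collagen-specific chaperone, read 9.98, 9.93 and 9.83 in SKN. It read 9.67, 8.94 and 9.21 in Brain, and 9.89, 10.40 and 9.77 in Fibroblast. All Brain arrays lay below all arrays of both skin cultures. Brain was lower than Fibroblast by limma (log2 difference -0.75 ± 0.22 SE, n = 3 and 3, adjusted p 0.0417). That call ended without any array but Brain 1 and Fibroblast 3 (adjusted p 0.0593 to 0.123), and with quantile normalisation (0.0591), no variance moderation (0.0888) or those 2 groups alone (0.0917). The difference of SKN from Brain, 0.64 ± 0.22, was not called (adjusted p 0.0837), but passed without Brain 1 (0.0284). SKN and Fibroblast overlapped, with a difference of -0.11 (95% interval -0.60 to 0.39, adjusted p 0.852).

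P4HA2, a catalytic subunit of prolyl 4-hydroxylase, read 10.48, 10.06 and 10.59 in SKN, 10.00, 9.80 and 9.70 in Brain, and 9.88, 10.28 and 10.06 in Fibroblast. Its differences were small, and none was called. SKN lay above Brain without overlap (0.54 ± 0.17, adjusted p 0.0654), and this difference passed without SKN 2 (0.0264). SKN and Fibroblast overlapped (0.30, 95% interval -0.086 to 0.69), as did Brain and Fibroblast (-0.24, interval -0.63 to 0.15).

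P4HA3, another catalytic subunit of the same enzyme, had a different order of groups. It read 8.71, 8.45 and 8.45 in SKN, 9.69, 8.75 and 8.97 in Brain, and 7.89, 7.71 and 7.01 in Fibroblast. The 3 groups did not overlap, with Brain highest and Fibroblast lowest. Brain was higher than Fibroblast by 1.60 ± 0.29 (adjusted p 0.00573). SKN differed from Fibroblast by 1.01 ± 0.29 (adjusted p 0.113) and from Brain by -0.59 ± 0.29 (adjusted p 0.224) with 95% intervals of 0.35 to 1.67 and -1.25 to 0.065, and neither difference was called. Brain 1 had the highest reading of P4HA3 of the 9 arrays.

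P3H2, a prolyl 3-hydroxylase, had the widest range of the 9 enzymes and was high in all Brain arrays. It read 4.65, 3.83 and 4.14 in SKN, 10.85, 10.91 and 11.09 in Brain, and 6.85, 5.02 and 4.77 in Fibroblast. SKN was lower than Brain (log2 difference -6.75 ± 0.49, adjusted p 6.26e-05), and Brain was higher than Fibroblast by 5.41 ± 0.49 (adjusted p 2.19e-04). The SKN readings and those of Fibroblast 2 and Fibroblast 3 are low and not shown to be above background, so no fold is given. SKN lay below Fibroblast without overlap, but the difference of -1.34 ± 0.49 was not called (adjusted p 0.21). Fibroblast 1 read 1.96 above the mean of the other Fibroblast arrays. On that array 4 of 6 Schwann cell and neural crest markers also read more than 1 above that mean. Without Fibroblast 1, Brain minus Fibroblast was 6.06 (adjusted p 1.67e-05) and SKN minus Fibroblast was -0.69 (adjusted p 0.2).

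A different P3H2 probe set gave the same order of groups with smaller differences. It read 4.31, 4.30 and 4.28 in SKN, 6.29, 7.30 and 7.45 in Brain, and 5.32, 4.93 and 4.42 in Fibroblast. Its SKN minus Brain difference was -2.71 ± 0.32 (adjusted p 7.28e-04), and Brain minus Fibroblast was 2.12 ± 0.32 (adjusted p 0.00239). Both P3H2 probe sets thus called Brain higher than either skin culture, but they disagreed on the size. The remaining 8 genes had 1 probe set each.

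**Figure D2:**
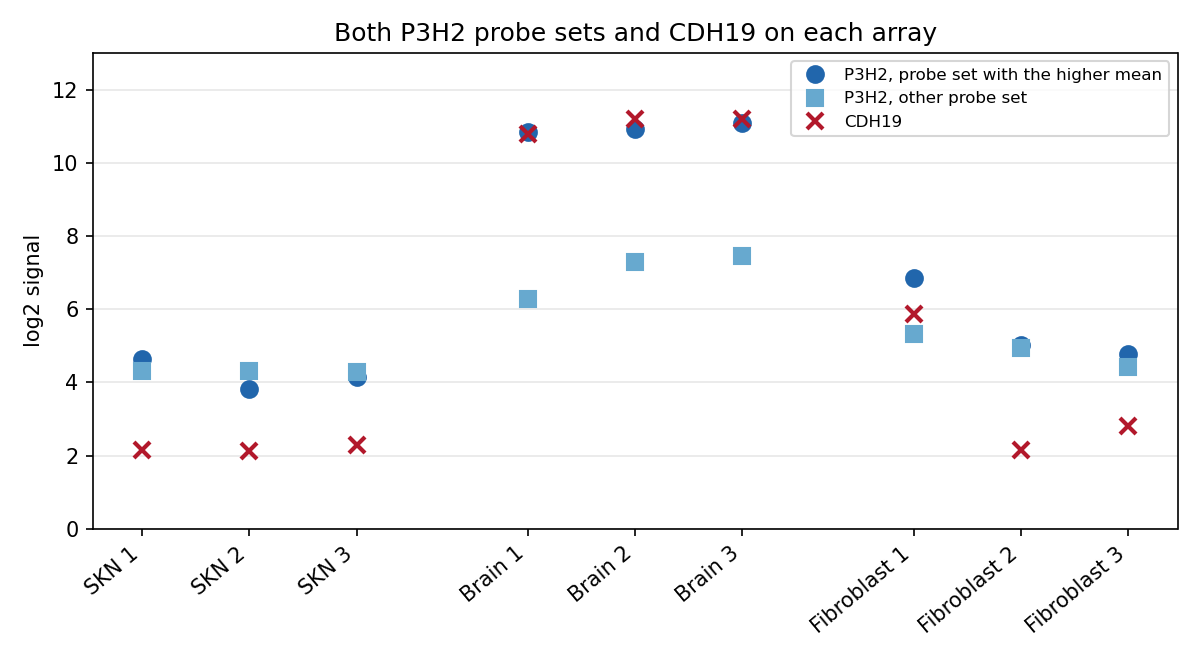
Log2 signal (y axis) of the pair of P3H2 probe sets and of the Schwann cell cadherin CDH19 on each of the 9 arrays (x axis), for comparison across arrays within a symbol and not between symbols. All 3 are highest in the Brain arrays, and Fibroblast 1 is the highest Fibroblast array in each (6.85 and 5.32 for P3H2, 5.86 for CDH19).

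PLOD1, which hydroxylates lysines of collagen, read 9.64, 9.32 and 9.80 in SKN, 9.07, 9.31 and 9.38 in Brain, and 8.98, 9.25 and 8.82 in Fibroblast. Its groups were close together. All SKN arrays lay above all Fibroblast arrays, but the difference of 0.57 ± 0.17 was not called (adjusted p 0.118). SKN and Brain overlapped (0.33, 95% interval -0.047 to 0.72), and Brain and Fibroblast did as well (0.24, interval -0.14 to 0.62).

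PCOLCE, which enhances removal of the procollagen C-propeptide, was high in both skin cultures. It read 9.90, 9.07 and 9.63 in SKN, 4.64, 4.38 and 4.41 in Brain, and 9.20, 9.85 and 9.33 in Fibroblast. All Brain arrays lay far below all arrays of both skin cultures. SKN was higher than Brain by 5.06 ± 0.24 (adjusted p 6.85e-06), and Brain was lower than Fibroblast (-4.98 ± 0.24, adjusted p 1.14e-05). The Brain readings are low and not shown to be above background. The skin cultures overlapped, with SKN minus Fibroblast at 0.079 (95% interval -0.46 to 0.62). PCOLCE and P3H2 were thus opposite in Brain: the one lowest there and the other highest, each without overlap with the skin cultures.

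LOX, the founding lysyl oxidase, read 10.43, 10.76 and 10.94 in SKN. In Brain it read 9.40, 11.34 and 10.97, and in Fibroblast 11.59, 11.63 and 11.50. Fibroblast lay above both other groups without overlap, and the readings of Brain spanned those of SKN. None of its differences was called: SKN minus Brain was 0.14 ± 0.43, SKN minus Fibroblast -0.86 ± 0.43 (adjusted p 0.369) and Brain minus Fibroblast -1.001 ± 0.43 (adjusted p 0.145). SKN minus Fibroblast passed when those 2 groups were fitted alone (adjusted p 0.0481). Brain 1 read 1.75 below the mean of the other Brain arrays. Without Brain 1, SKN was lower than Fibroblast by limma (-0.86 ± 0.16, adjusted p 0.0345), SKN minus Brain turned to -0.45 (adjusted p 0.163), and Brain minus Fibroblast was -0.42 (adjusted p 0.167).

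LOXL1, a lysyl oxidase best known for elastic fibres, had the smallest spread within groups of the 9 enzymes, with a pooled SD of 0.092. It read 7.22, 7.04 and 7.26 in SKN, 5.67, 5.79 and 5.71 in Brain, and 6.70, 6.69 and 6.54 in Fibroblast. The 3 groups did not overlap, with SKN highest and Brain lowest, and every pair was called. SKN was higher than Brain by 1.45 ± 0.10 (adjusted p 5.45e-05) and higher than Fibroblast by 0.53 ± 0.10 (adjusted p 0.0293), and Brain was lower than Fibroblast (-0.92 ± 0.10, adjusted p 5.82e-04). The call of SKN against Fibroblast ended without any array but SKN 2, Brain 1 and Brain 2 (adjusted p 0.0546 to 0.104), and with those 2 groups alone (0.0742).

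LOXL2, a lysyl oxidase of fibrillar and basement membrane collagens, had another order. It read 9.26, 9.28 and 9.30 in SKN, 8.08, 7.02 and 8.23 in Brain, and 10.70, 11.23 and 10.92 in Fibroblast. The 3 groups did not overlap, with Fibroblast highest, SKN between and Brain lowest. SKN was higher than Brain by 1.501 ± 0.29 (adjusted p 0.00949) and lower than Fibroblast (-1.67 ± 0.29, adjusted p 0.0211), and Brain was lower than Fibroblast (-3.17 ± 0.29, adjusted p 2.47e-04). In signal Fibroblast stood 8.99-fold over Brain. The call between SKN and Fibroblast ended without SKN 1, SKN 2, SKN 3, Fibroblast 2 or Fibroblast 3 (adjusted p 0.0593 to 0.0754), and without variance moderation (0.0872). Between the skin cultures, LOXL1 and LOXL2 were therefore called in opposite directions.

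**Figure D3:**
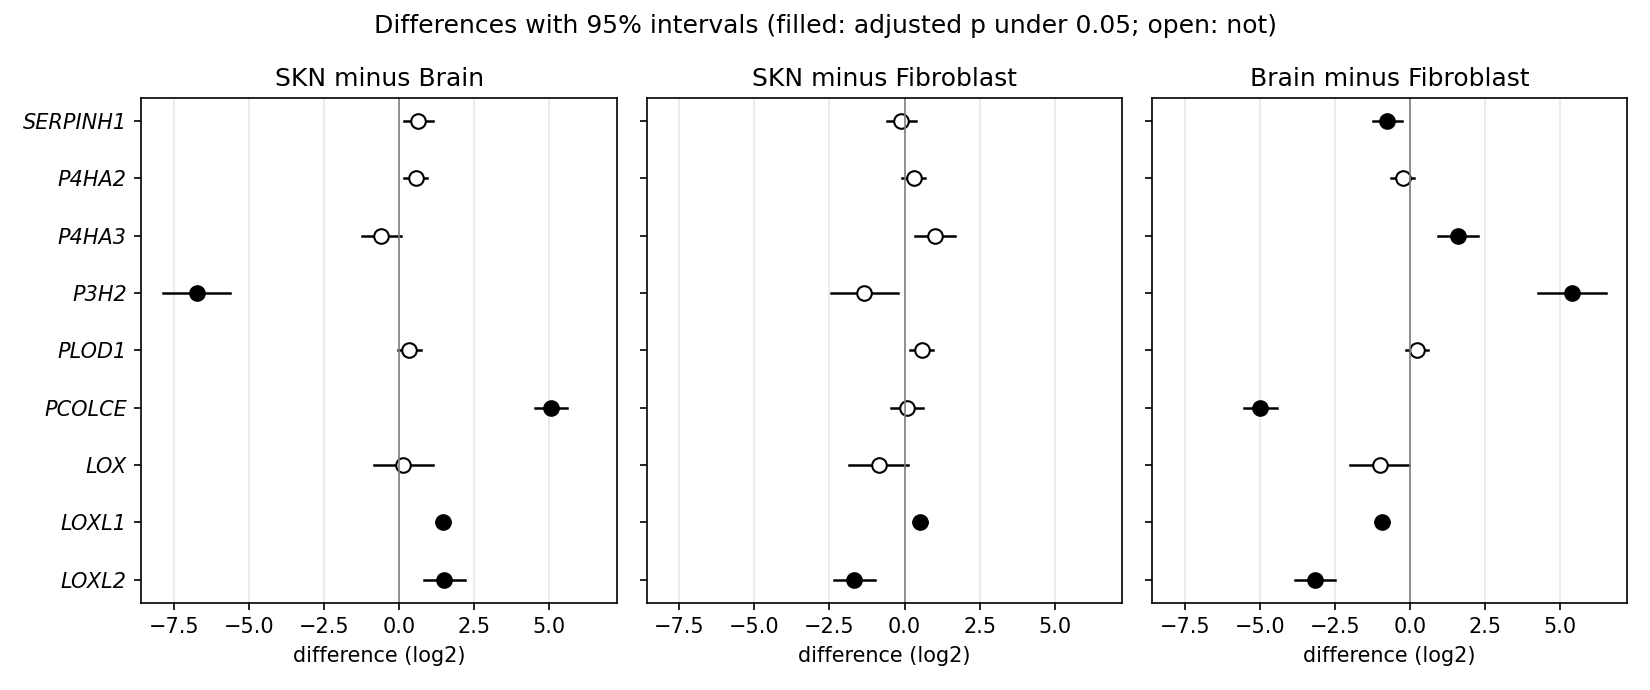
Log2 differences (x axis) of the 9 enzymes in the 3 comparisons, with 95% intervals from limma and filled points where the adjusted p was under 0.05. P3H2 (-6.75) and PCOLCE (5.06) lie farthest from 0 between SKN and Brain, and between SKN and Fibroblast only LOXL1 (0.53) and LOXL2 (-1.67) are filled.

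In SKN against Brain, which sets precursors from skin beside those from brain, PCOLCE, LOXL1 and LOXL2 were higher in SKN and P3H2 was lower. That makes 4 of 9 enzymes called (3 higher, 1 lower), beside 22.6% of all named genes (10.9% higher, 11.7% lower) and 16.4% of all probe sets. The groups did not overlap for 7 of 9, beside 40.0% of all genes. The median difference was 0.54, beside 0.0072 over all genes.

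In SKN against Fibroblast, 2 cultures from the same organ, LOXL1 was higher in SKN and LOXL2 lower, so that 2 of 9 were called beside 4.55% of all genes (2.45% higher, 2.10% lower) and 3.34% of all probe sets. The count was 0 without SKN 1, SKN 3, Fibroblast 2 or Fibroblast 3, 1 without SKN 2, Brain 3 or Fibroblast 1, and 3 without Brain 1. It was also 0 when Fibroblast 1 and Brain 3 were both left out, which was decided with the values known. Groups did not overlap for 6 of 9, beside 26.7% of all genes. An unadjusted p under 0.05 was reached by 5 of 9, but the share of all genes was not counted for this. The median difference was 0.079, beside -0.042 over all genes.

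In Brain against Fibroblast, PCOLCE, LOXL2, LOXL1 and SERPINH1 were lower in Brain, and P3H2 and P4HA3 higher, so that 6 of 9 were called beside 27.0% of all genes (13.8% higher, 13.2% lower) and 20.6% of all probe sets. Groups did not overlap for 7 of 9, beside 44.3%. The median difference was -0.75, beside -0.059 over all genes. Across all 3 groups, limma's F test called 5 of 9 (PCOLCE, P3H2, LOXL1, LOXL2 and P4HA3), beside 28.3% of all genes. SERPINH1 missed in that test (adjusted p 0.0674). The 3 comparisons share their arrays in pairs, so their calls are not independent.

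Among other genes of hydroxylation and folding, calls differed by comparison. Of 12 measured, 6 were higher in SKN than in Brain (10.9% of all named genes) and 0 lower (11.7%), with 6 not called. The median difference was 0.48, beside 0.0072 over all genes. FKBP10, a prolyl isomerase that works with collagen chaperones, was higher by 1.78 ± 0.16, FKBP7 of the same family by 1.31 ± 0.13, and P4HA1, a further prolyl 4-hydroxylase subunit, by 1.19 ± 0.20. P3H4 (0.54 ± 0.12) and CRTAP, the partner of prolyl 3-hydroxylase 1 (0.49 ± 0.09), followed. The call of P3H4 ended without SKN 2, SKN 3 or Brain 3 (up to 0.0637), and that of PPIB ended in 7 of 9 removals of 1 array, all but SKN 2 and Fibroblast 3 (up to 0.154).

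Against Fibroblast, 8 of the 12 hydroxylation and folding genes were lower in Brain (13.2% of all genes), 0 higher (13.8%) and 4 not called. The median was -0.57, beside -0.059 over all genes. P4HA1 was lower in Brain (-1.83 ± 0.20), with readings of 8.01, 8.08 and 8.62 in Brain against 9.85, 10.41 and 9.95 in Fibroblast. FKBP10 (-1.44 ± 0.16), P3H4 (-0.75 ± 0.12), FKBP9 (-0.72 ± 0.17) and FKBP7 (-0.70 ± 0.13) were lower as well. The call of FKBP9 ended without Brain 2 or Brain 3 (up to 0.0601), and the count was 5 without either of those arrays. The 3 catalytic subunits of prolyl 4-hydroxylase thus differed in this comparison: P4HA1 was lower in Brain than in Fibroblast, P4HA3 was higher, and P4HA2 was not called.

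Between SKN and Fibroblast, SKN had 2 of the 12 hydroxylation and folding genes called higher (2.45% of all genes) and 0 called lower (2.10%). The median was -0.15, beside -0.042 over all genes. PPIB, the prolyl isomerase cyclophilin B, read 11.17, 10.82 and 11.15 in SKN and 10.27, 10.28 and 9.94 in Fibroblast (0.88 ± 0.14), a call that ended without SKN 3 (adjusted p 0.0509). FKBP7 was higher by 0.61 ± 0.13, and its call ended without any array but SKN 1 (up to 0.137). Without Fibroblast 1 and Brain 3 neither was called, and the count was 0 without SKN 3.

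The genes of procollagen export and propeptide removal were divided. Between SKN and Brain, SKN had 4 of 12 called higher (10.9% of all genes) and 2 called lower (11.7%). The median was 0.18, beside 0.0072 over all genes. CREB3L1, a transcription factor that drives secretory genes in collagen-making cells, was higher in SKN by 2.39 ± 0.22, reading 7.07, 7.10 and 6.96 in SKN and 4.55, 4.28 and 5.13 in Brain. ADAMTS3, a procollagen N-proteinase, was higher by 1.06 ± 0.22, and the coat protein SEC23A by 0.78 ± 0.14. The Brain readings of CREB3L1 and ADAMTS3 are low and not shown to be above background. ADAMTS2, another N-proteinase, was lower in SKN (-1.12 ± 0.18), reading 6.72, 7.02 and 6.55 in SKN and 7.83, 7.96 and 7.85 in Brain. The proprotein convertase FURIN was also lower (-0.60 ± 0.14), but its call ended without SKN 2, SKN 3 or Brain 1 (up to 0.064). The remaining call was that of SEC24D (0.72), which ended without SKN 2, SKN 3, Brain 2 or Brain 3 (up to 0.0649). Without Fibroblast 1 and Brain 3, 2 export and propeptide genes were higher and 1 lower.

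Brain against Fibroblast gave 2 of 12 export and propeptide genes higher (13.8% of all genes), 4 lower (13.2%) and 6 not called. The median was -0.39, beside -0.059 over all genes. CREB3L1 (-2.84 ± 0.22), ADAMTS3 (-1.22 ± 0.22), SEC23A (-1.03 ± 0.14) and SEC24D were lower in Brain, of which SEC24D lost its call without Brain 2, Brain 3 or any 1 Fibroblast array (up to 0.0756). PCOLCE2, the other procollagen enhancer, was higher in Brain by 1.74 ± 0.34, with 8.49, 9.04 and 8.45 in Brain against 7.14, 6.58 and 7.04 in Fibroblast. The pair of enhancers was thus called in opposite directions in this comparison, PCOLCE lower in Brain and PCOLCE2 higher. For PCOLCE2 neither SKN minus Brain (-0.26 ± 0.34, adjusted p 0.696) nor SKN minus Fibroblast (1.48 ± 0.34, adjusted p 0.0579) was called. ADAMTS2 was higher in Brain by 0.71 ± 0.18, a call that ended in 5 of 9 removals (without any Brain array, Fibroblast 1 or Fibroblast 3, up to 0.0797). Without Fibroblast 1 and Brain 3, 1 was higher and 2 lower. BMP1, the C-proteinase that PCOLCE enhances, named after its values were seen, was not called in any comparison (0.23 for SKN minus Brain, 0.066 for SKN minus Fibroblast and -0.16 for Brain minus Fibroblast). Between SKN and Fibroblast limma called 0 of these 12 genes, beside 4.55% of all genes, and the median was -0.18, beside -0.042. An unadjusted p under 0.05 was reached by 3, with the share of all genes not counted.

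Among 6 other genes of crosslinking and fibre assembly, 5 were higher in SKN than in Brain, 0 lower and 1 not called. Over all genes 10.9% were higher and 11.7% lower, and the median of 1.75 stands beside 0.0072. FBLN5, a fibulin that brings lysyl oxidases to elastic fibres, was higher by 5.00 ± 0.20, and EFEMP2, another fibulin that binds LOX, by 2.96 ± 0.19. FBLN5 read 9.04, 9.02 and 9.26 in SKN, 3.95, 3.77 and 4.59 in Brain, and 8.63, 8.57 and 8.37 in Fibroblast. LOXL3 (1.98 ± 0.46), LOXL4 (1.51 ± 0.39) and FMOD, a collagen-binding proteoglycan (0.58 ± 0.14), made up the 5, and their calls ended in 3, 5 and 4 of 9 removals. The Brain readings of FBLN5, LOXL4 and FMOD, and the SKN readings of FMOD, are low and not shown to be above background. The count was 2 without SKN 3, and 3 without SKN 2 or any 1 Brain array.

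LOXL4, a lysyl oxidase, was higher in Fibroblast than in either precursor culture. It read 4.84, 5.91 and 5.39 in SKN, 3.26, 3.72 and 4.63 in Brain, and 8.14, 8.43 and 7.68 in Fibroblast. Brain was lower than Fibroblast (-4.22 ± 0.39, adjusted p 2.37e-04), and SKN was lower than Fibroblast (-2.70 ± 0.39, adjusted p 0.00924), a call that ended without variance moderation (0.0551). FMOD was lower in Brain (-1.61 ± 0.14) and in SKN (-1.04 ± 0.14) than in Fibroblast. FBLN5 (-4.42 ± 0.20) and EFEMP2 (-2.41 ± 0.19) were lower in Brain than in Fibroblast. LOXL3 was not called between the skin cultures, with 8.92, 8.45 and 9.68 in SKN against 7.93, 6.28 and 6.74 in Fibroblast (2.03 ± 0.46, adjusted p 0.0545), but passed without Fibroblast 1. In all, 4 of the 6 were lower in Brain than in Fibroblast (13.2% of all genes) and 0 higher (13.8%). In SKN, 2 were lower than in Fibroblast (2.10% of all genes) and 0 higher (2.45%). The median of SKN minus Fibroblast was 0.41, beside -0.042 over all genes. The 4 genes not called had differences above 0, among them FBLN5 (0.59 ± 0.20, adjusted p 0.187) and EFEMP2 (0.55 ± 0.19, adjusted p 0.196).

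The fibrillar collagen chains, the substrates of these enzymes, were called in part. Of 9 chains, 6 were lower in Brain than in Fibroblast, 1 higher (COL5A3) and 2 not called. Over all genes, 13.2% were lower and 13.8% higher. COL1A1 read 5.28, 5.13 and 8.25 in Brain against 11.63, 12.14 and 11.65 in Fibroblast (-5.58 ± 0.72), and COL3A1 4.74, 5.00 and 7.79 against 11.27, 11.41 and 11.43 (-5.52 ± 0.69). COL11A1 (-4.76 ± 0.74), COL1A2 (-3.60 ± 0.57) and COL5A2 (-2.46 ± 0.17) were lower too. On Brain 1 and Brain 2 the readings of COL1A1, COL3A1 and COL11A1 are low and not shown to be above background. The call of COL5A3 (1.49 ± 0.44) ended in 6 of 9 removals (up to 0.131), all but SKN 1, SKN 2 and Brain 2. Without Brain 3 the COL1A1 and COL3A1 differences were -6.60 and -6.50 and that of COL11A1 was -5.42, and without Brain 2 that of COL1A2 was -2.81.

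In SKN against Brain, 4 of the 9 chains were higher, 0 lower and 5 not called: COL1A1 (5.08 ± 0.72), COL3A1 (4.46 ± 0.69), COL1A2 (3.29 ± 0.57) and COL5A2 (1.63 ± 0.17). Over all genes, 10.9% were higher and 11.7% lower. Without Brain 3 the COL1A1 and COL3A1 differences were 6.10 and 5.44, and without Brain 2 that of COL1A2 was 2.50. In SKN against Fibroblast, COL5A1 (-1.20 ± 0.14) and COL5A2 (-0.83 ± 0.17) were lower, 0 were higher and 7 were not called. Over all genes, 2.10% were lower and 2.45% higher. The COL5A2 call ended without any array but Brain 1 and Brain 3 (up to 0.132), and the count was 4 without Brain 3 and 1 without any of the 7 arrays that ended that call.

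**Figure D4:**
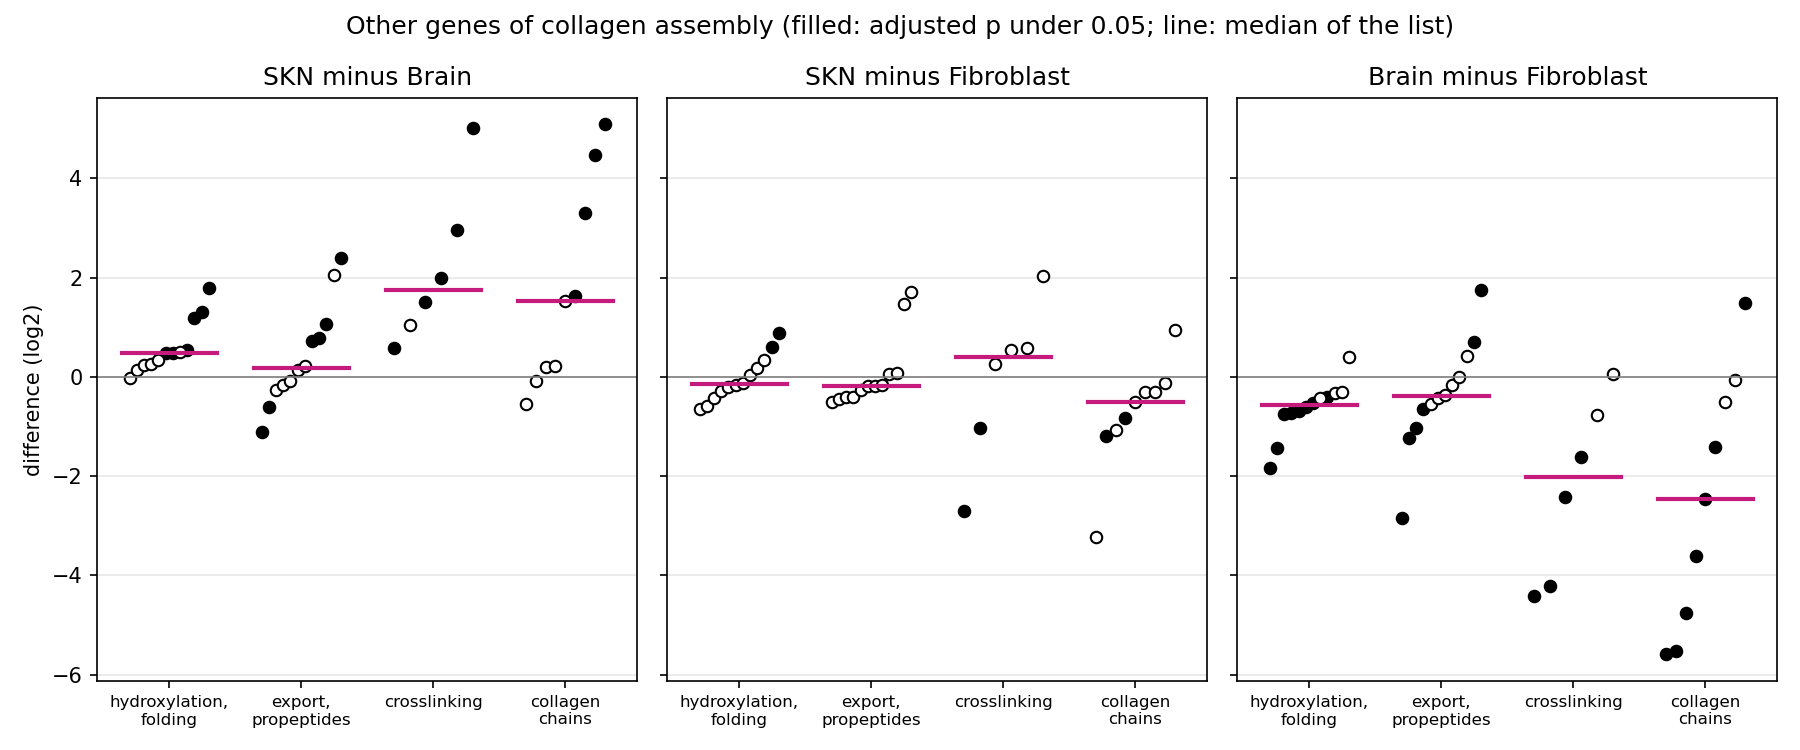
Log2 differences (y axis) of the other genes of collagen assembly, in 4 lists (x axis) and 3 comparisons, with filled points where limma's adjusted p was under 0.05 and a line at each list's median. Medians of the crosslinking and collagen chain lists are -2.01 and -2.46 between Brain and Fibroblast, against 0.41 and -0.50 between SKN and Fibroblast.

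Brain 3 and Fibroblast 1 were set against the other arrays of their groups, a view chosen after the values were seen. On Brain 3, 5 of 10 fibroblast markers read more than 1 unit above the mean of the other Brain arrays, with a range of -0.136 (DPT) to 3.85 (LUM). Among pericyte and smooth muscle markers, ACTA2 (5.57) and RGS5 (3.33) did so as well, and the others lay between -0.611 and 0.209. RGS5 read 2.22, 2.40 and 2.72 in Fibroblast. Of the 9 fibrillar collagens, 4 read more than 1 unit above the mean of the other Brain arrays, among them COL1A1 (3.04) and COL3A1 (2.92). COL5A1 (0.043), COL11A2 (0.028) and COL2A1 (-0.133) stayed near that mean. None of the 9 enzymes read more than 1 unit above that mean. For P4HA2, SERPINH1 and LOXL1, however, Brain minus Fibroblast was only -0.24, -0.75 and -0.92. Brain was not below Fibroblast for PLOD1, P4HA3 and P3H2 (0.24, 1.60 and 5.41). For these enzymes Fibroblast thus lay less than 1 unit above Brain, or below it, so the count is not read as a contrast with the collagens. PCOLCE read -0.096 and LOXL1 -0.015 relative to the mean of the other Brain arrays, so that both stayed near it. LOXL2 and LOX read 0.68 and 0.59 above it, and the other 5 enzymes lay between -0.25 and 0.21. In Fibroblast 1, P3H2 read 1.96 above the mean of the other Fibroblast arrays, beside 3.38 for CDH19, 2.26 for EDNRB and 1.77 for NGFR. Of the 6 Schwann cell and neural crest markers, 4 read more than 1 above that mean, and SOX10 and S100B read 0.281 and 0.249 above it. Genes outside that list departed on Fibroblast 1 too. LOXL3 (1.42), THY1 (1.29) and PDGFRA (1.21) read above that mean, and DPT (-1.40) below it. P4HA3 read 0.53 above that mean, and the other 7 enzymes lay between -0.38 and 0.087. The part of other cells in these readings was not tested.

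**Figure D5:**
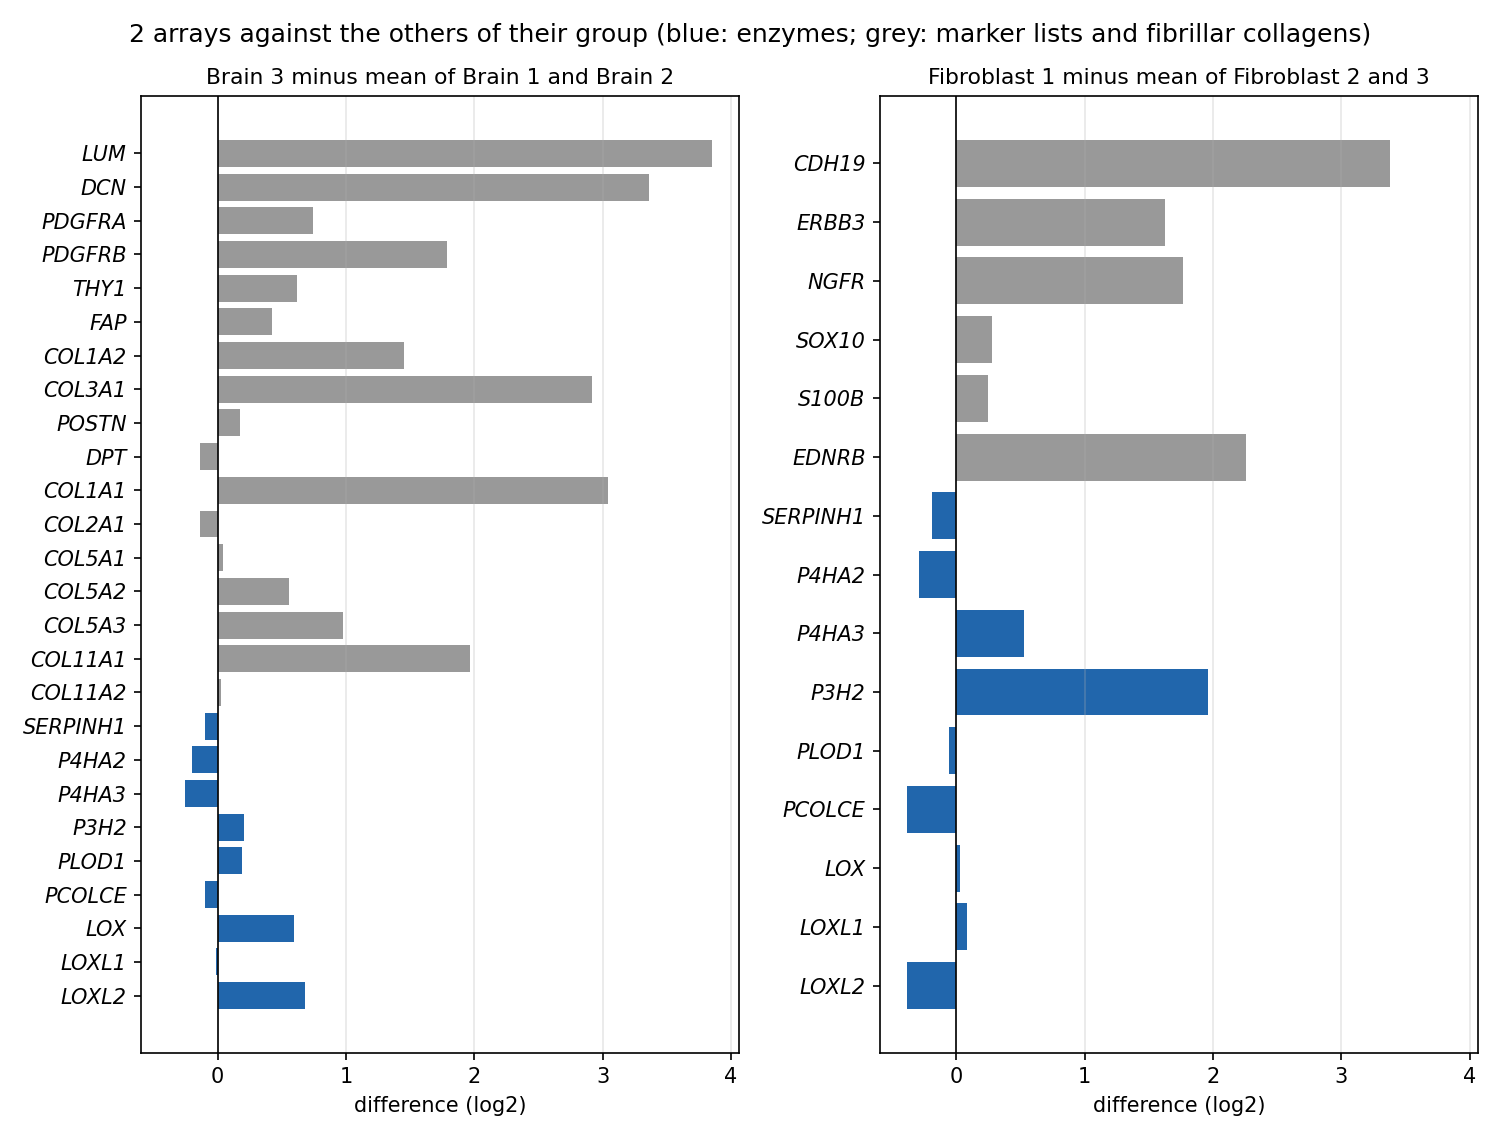
Log2 difference (x axis) of Brain 3 from the mean of the other Brain arrays, and of Fibroblast 1 from the mean of the other Fibroblast arrays, for the 9 enzymes (blue) and, in grey, all fibroblast markers and fibrillar collagens (left) or all Schwann cell and neural crest markers (right). On Brain 3 the grey bars run between -0.136 and 3.85 and PCOLCE stays at -0.096, and on Fibroblast 1 P3H2 (1.96) is the only blue bar above 1.

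The genes whose readings were most like those of each enzyme over the 9 arrays were sought among 3402 or 3403 other genes with an SD of at least 0.5. These correlations are descriptions over arrays that share the same 3 groups. PCOLCE was closest to SLC38A5, an amino acid carrier (Pearson r 0.997), and MFAP5, a microfibril protein (0.995). P3H2 was closest to CDH19 (0.994) and the adhesion molecule CADM4 (0.993). LOXL1 was closest to SCUBE2 (0.995) and HOXD8 (0.989), and LOXL2 to the glutamine carrier SLC1A5 (0.988) and TEC (0.984). P4HA3 was closest to PCNA, the sliding clamp of DNA replication (0.977), and RNASEH2B (0.965). PCNA read 9.36 in Brain 1, the highest of the 9 arrays, as P4HA3 did. LOX was closest to PDK1, a kinase that restrains pyruvate oxidation (0.948), and CAP2 (0.922). On Brain 1, where LOX was low, PDK1 read 5.08, beside 7.49 and 7.46 on Brain 2 and Brain 3, and CAP2 read 4.31, beside 6.99 and 7.24. SERPINH1 was closest to ELMO1 (0.963), PLOD1 to F2R (0.943) and P4HA2 to FNDC5 (0.915). Next after these came MKNK2 (0.938) for SERPINH1, KIT (0.912) for PLOD1 and PHKA2 (0.905) for P4HA2.

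The pooled SD within groups ran between 0.092 for LOXL1 and 0.70 for P3H2, beside a median of 0.19 over all named genes.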

How the data were processed

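Expression was measured in 9 cultures of dog cells, 3 per group, 1 Affymetrix array each. The authors deposited 1 table of 32205 probe sets, taken as log2 signals from their range (0.561 to 13.47), because no source used here states the base. MAS5, RMA and Partek are named, with no role or version, per the submitters' processing notes. The deposited values were used without filter or scaling. Gene symbols came from the platform's table: 16545 probe sets carried 1 symbol, 370 several and 15290 had no entry. Of the named genes, 15265 matched the dog RefSeq table (UU_Cfam_GSD_1.0) by gene ID, with 0 differing symbols, and no coordinates were used.

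Group means over the 9 arrays were compared with limma 3.58.1 in R 4.3.3, as a single linear model (6 residual and 2.41 prior degrees of freedom). Tests are 2-sided. "Called" means a Benjamini-Hochberg adjusted p under 0.05 over all probe sets. Fits were tested on simulated data. The number of arrays limits the precision. The enzymes, the lists and the alternatives were chosen with earlier results of these data known. All 9 enzymes are named, and of the other lists up to 5 called genes per comparison by size of difference, besides genes named for a contrast with an enzyme. Marker genes are named where an array stood apart. For each enzyme the genes most alike in pattern are named. One listed enzyme is not reported here.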

Additional observations from a re-analysis of the deposited data

How the results depend on the processing

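The differences of PCOLCE, P3H2, LOXL1 and LOXL2 in both comparisons with Brain, and of P4HA3 between Brain and Fibroblast, kept direction and call under every alternative run. Enzymes called between SKN and Fibroblast (2) numbered 1 without variance moderation, 0 with the replicate block, 0 with Fibroblast 1 and Brain 3 both left out (decided with the values known) and 0 to 3 with 1 array left out. The F test called 8 enzymes with array weights, against 5. With 1 array left out, enzymes called were 4 to 5 for SKN minus Brain, 5 to 6 for Brain minus Fibroblast and 5 to 7 in the F test. For the F test the share of all genes was not counted at these settings, so its changes say little about the enzymes. The replicate block ended the calls of LOXL1 (0.0811) and LOXL2 (0.0522) between SKN and Fibroblast and of SERPINH1 (0.0683) between Brain and Fibroblast, and changed no other enzyme's call. Same-numbered arrays deviated together at correlations of -0.045 to 0.145, and an array correlated best with its own number in 8 of 18 searches of another group. With 3 arrays to choose from in each search, this neither shows nor excludes pairs. The numbers were not taken as pairs because no label used here states a pairing. Without variance moderation, calls also ended for PPIB, LOXL3 and LOXL4 in SKN minus Brain, FKBP7, LOXL4 and COL5A2 in SKN minus Fibroblast, and PLOD3, SEC24D, ADAMTS2 and COL5A3 in Brain minus Fibroblast (adjusted p 0.0505 to 0.107).

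Over all probe sets, SKN minus Fibroblast called 1076, against 490 without moderation, 516 without Fibroblast 1 and Brain 3, and 513 to 1095 with 1 array left out. Without Fibroblast 1 and Brain 3, SKN minus Brain called 3366 (5271 otherwise) and Brain minus Fibroblast 3657 (6638 otherwise). With 1 array left out these ranged over 3530 to 4986 and 4876 to 6365. Signs turned for uncalled differences alone. LOX in SKN minus Brain was -0.047 with array weights and -0.45 to 0.52 with 1 array left out, lowest without Brain 1. PCOLCE in SKN minus Fibroblast was -0.10 to 0.31, below 0 without SKN 1 (-0.10) or Fibroblast 1 (-0.048, also with Brain 3 left out). SERPINH1 in SKN minus Fibroblast was -0.23 to 0.082, above 0 without Fibroblast 2. The cause was not tested. Of 462 alternative values of single enzymes, 420 kept direction and call.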
